A study of Mus musculus with 18 samples.

Results

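The 10 genes described here are Ccn1, Ccn2, Ankrd1, Amotl2, Cav1, Cav2, Cavin1, Axl, Lats2 and Ajuba, a group of matricellular, caveolar and YAP target genes. They were taken by symbol, as all 23 probe sets annotated to them alone, and are 10 of the 18193 genes with a probe set of their own. The genes and the related lists below were chosen with earlier results of these data known. Their counts beside the share of all genes are therefore descriptive and test nothing about the group. The 10 genes were measured in mouse embryonic stem cells on 18 arrays, 3 in each of 6 groups. For 12 arrays, CGR8 cells were transfected by lipofection with Foxd3 and CA-NFATc3 together, CA-NFATc3 alone, Foxd3 alone or the empty vector. NFATc3 is a transcription factor activated by calcineurin, CA usually stands for constitutively active, and Foxd3 is a forkhead factor of pluripotent cells. The other 6 arrays held conditional knockout cells (Foxd3fl/fl:Cre-ERT) given tamoxifen for 2 days, or DMSO, which the series lists as 0 days of tamoxifen. The labels also give these cells the source name CGR8 and the same protocols, with serum and LIF for all 18 samples. The promoter that drives the plasmids or the Cre, the share of cells transfected, the number of knockout clones and the time after transfection are not stated in the labels. The labels call the replicates biological and say no more, so p-values measure the spread between these samples.

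YAP and TAZ are transcriptional coactivators that bind DNA through the TEAD factors and are held in the cytoplasm by the Hippo kinases Lats1 and Lats2. Ccn1 (also Cyr61), Ccn2 (also Ctgf), Ankrd1, Amotl2 and Axl are widely used readouts of their activity, while Lats2 and Amotl2 are both targets and inhibitors of the pathway. Caveolin-1 and caveolin-2 (Cav1, Cav2) and Cavin1 build the coat of caveolae, flask-shaped pits of the plasma membrane that are plentiful in fibroblasts, muscle and endothelium.

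Signals are MAS5 intensities on a linear scale, and the median of an array was 73.0 to 80.7 for the knockout line and 55.2 to 67.1 for transfected cells. Replicates correlated at r = 0.981 to 0.988 across probe sets on the log2 scale. Changes are limma log2 differences of signal + 32, ± SE, which understate the change of dim genes, and p-values are adjusted over all genes tested. Calls were made at an adjusted p under 0.05, for genes tested because they reached a signal of 65.8 in at least 3 arrays of the fit. The Foxd3 probe set went against the label of the overexpressing cells: it read 237 ± 5.95 on arrays labelled Foxd3 and 443 ± 55.9 on vector arrays (SD, n = 3 each; log2 -0.81, adjusted p = 0.00169). With both plasmids it read 234 ± 37.7, against 451 ± 38.6 with CA-NFATc3 alone (log2 -0.87, adjusted p = 0.000452). Where its probes lie relative to the plasmid's insert is not stated in the labels, so directions below rest on the labels. With tamoxifen its signal was 31.4 ± 29.6, against 219 ± 25.9 with DMSO (log2 -2.08, adjusted p = 0.000146). Nfatc3 read 1732 ± 58.5 with CA-NFATc3 and 1581 ± 31.4 with vector (log2 0.13, adjusted p = 0.352). All 6 pluripotency markers lay above the filter in every group. Of 6 endothelial markers, the group means of Cdh5, Tie1 and Emcn lay under it in every group, Pecam1 (93.5 to 132) and Tek (137 to 240) over it in every group, and Kdr over it with both plasmids (96.8) and CA-NFATc3 (70.5).

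In CGR8 cells, CA-NFATc3 raised 5 of the 10 genes over vector: Cav1, Ccn1, Cav2, Cavin1 and Amotl2. Ccn2, Lats2 and Ajuba did not pass, and Ankrd1 and Axl were under the filter on all 12 arrays and were not tested. With the replicate number as a block Ccn2 was called too (adjusted p = 7.89e-05), which made 6. Across all 11609 genes tested, 4.62% were called higher. The median change of the 8 tested genes was 1.06 on the log2 scale, beside -0.00 over all genes. Cav2 was tested only through its CA-NFATc3 arrays, and Cav1 only through the 6 arrays with CA-NFATc3 in any combination, so both had to differ to enter this count. In these bulk samples, fewer cells of a type and less RNA per cell cannot be told apart.

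**Figure D1:**
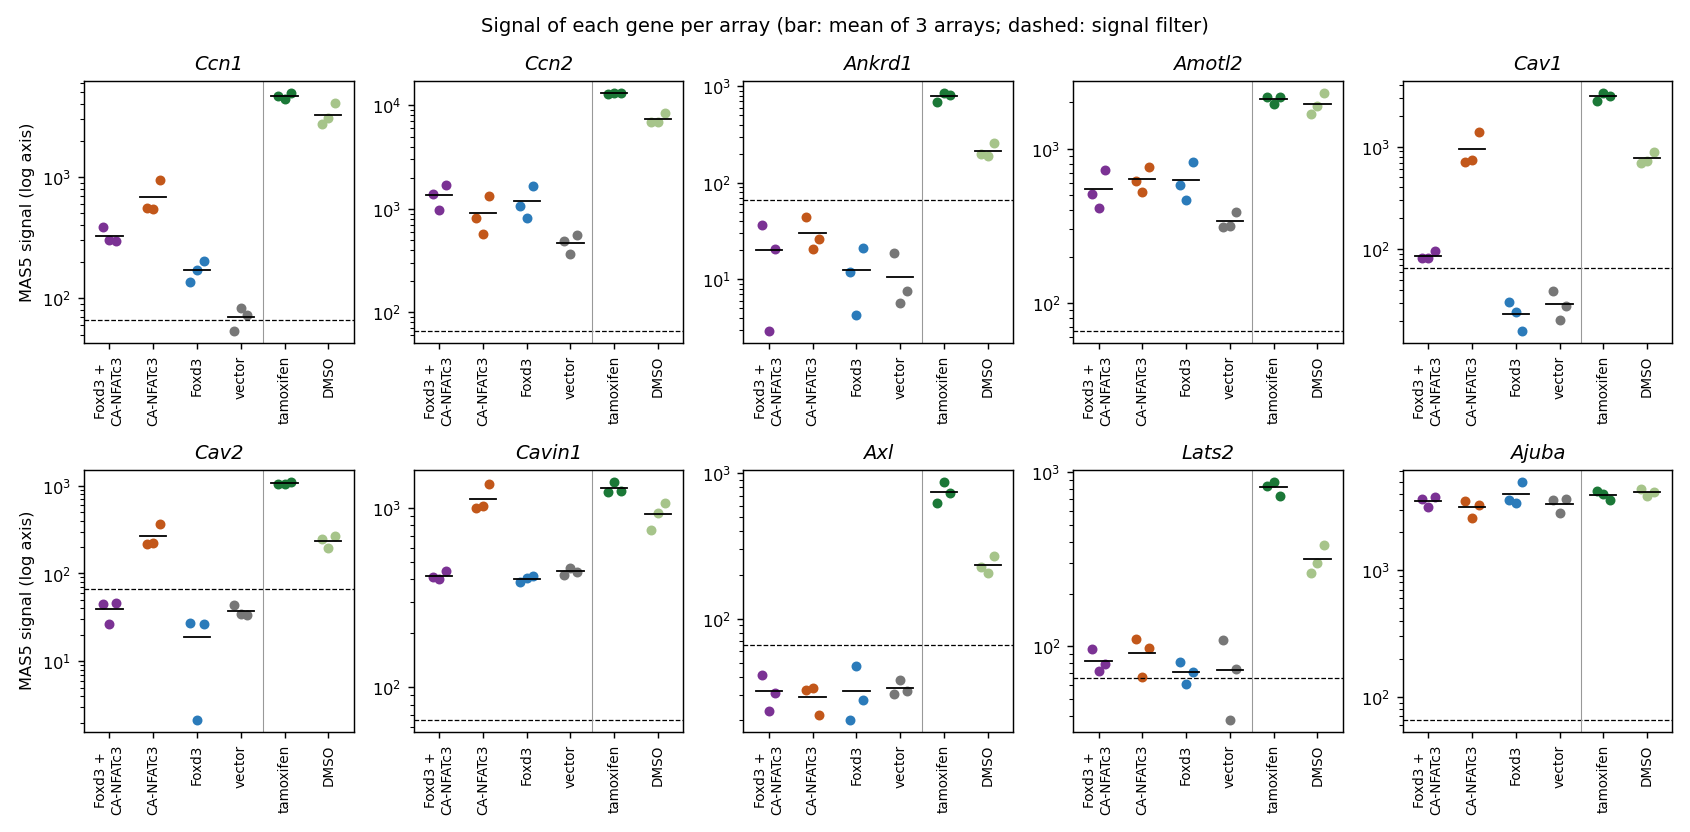
Signal of each of the 10 genes on each of the 18 arrays (log axis), by group, with points for arrays and a bar for the group mean; the dashed line is the filter of 65.8. Cav1 lies between 714.9 and 1379.8 with CA-NFATc3 and between 81.5 and 95.2 with both plasmids, while Ajuba lies between 2590 and 4989 on all arrays.

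All 3 caveolar coat genes rose with CA-NFATc3 alone and were lower when both plasmids were given. Cav1, the main structural protein of the coat, read 81.6, 81.5 and 95.2 with both plasmids, 714.9, 741.6 and 1379.8 with CA-NFATc3, 30.2, 24.2 and 15.7 with Foxd3, and 38.6, 20.4 and 28.0 with vector. The CA-NFATc3 arrays stood far above all others, the arrays with both plasmids lay between, and Foxd3 and vector arrays overlapped under the filter. CA-NFATc3 exceeded vector by 3.95 ± 0.22 (adjusted p = 2.1e-08), at least 14.4-fold. This bound divides the mean of the bright group by the filter value, since vector was under it on every array. With both plasmids Cav1 was lower than with CA-NFATc3 alone (log2 -2.99 ± 0.22, adjusted p = 9.21e-07), 7.92-fold lower on signal + 32. It still exceeded vector by 0.96 ± 0.22 (adjusted p = 0.0205, at least 1.31-fold). That call ended without vector replicate 2 (adjusted p = 0.0774) or 3 (0.0674) and without replicate 2 (0.053) or 3 (0.0828) of both plasmids.

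Cav2, which assembles with Cav1 in the coat, followed the same order of groups. Its signals were 44.9, 26.7 and 45.6 with both plasmids, 218.4, 223.5 and 364.6 with CA-NFATc3, 27.4, 2.1 and 26.8 with Foxd3, and 43.3, 34.8 and 33.3 with vector. Of the transfected arrays only those with CA-NFATc3 alone passed the filter; the Foxd3 arrays lay under the vector arrays there. Cav2 was 2.09 ± 0.25 above vector with CA-NFATc3 (adjusted p = 6.98e-05, at least 4.09-fold). With both plasmids it was lower than with CA-NFATc3 (log2 -2.06 ± 0.25, adjusted p = 0.000105, at least 4.09-fold), and its difference from vector was 0.03 (adjusted p = 0.966). Leaving out any CA-NFATc3 array put Cav2 under the filter, so it was then not tested.

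Cavin1, the cytosolic coat protein needed to form caveolae, had a level well above the filter in every group. It read 410.3, 401.4 and 445.5 with both plasmids, 996.7, 1023.8 and 1353.9 with CA-NFATc3, 384.1, 404.7 and 414.5 with Foxd3, and 420.4, 465.0 and 440.8 with vector. No CA-NFATc3 array overlapped another transfected group, and the arrays with both plasmids overlapped those of vector. Cavin1 rose by 1.27 ± 0.11 with CA-NFATc3 (adjusted p = 3.21e-06), 2.42-fold on signal + 32. With both plasmids it was lower than with CA-NFATc3 alone (log2 -1.35 ± 0.11, adjusted p = 2.35e-06), 2.54-fold. Against vector, both plasmids gave -0.07 (adjusted p = 0.806).

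The 250 bases upstream of the annotated starts of these 3 genes are shown because the genes moved together, as RefSeq gives them on GRCm38.p6, 5′ to 3′ on the gene's strand. Capitals mark GGAATG, the TEAD motif, GGAAA, the core bound by NFAT, and TGANTCA, the AP-1 motif, on either strand (CATTCC and TTTCC read on the opposite strand). The Cav1 window lies at chr6:17306085-17306334 (+), the Cav2 window at chr6:17280935-17281184 (+) and the first of both Cavin1 windows at chr11:100970618-100970867 (-). Cav2 and Cav1 are neighbours on chromosome 6 with 0 annotated genes between them.
Cav1: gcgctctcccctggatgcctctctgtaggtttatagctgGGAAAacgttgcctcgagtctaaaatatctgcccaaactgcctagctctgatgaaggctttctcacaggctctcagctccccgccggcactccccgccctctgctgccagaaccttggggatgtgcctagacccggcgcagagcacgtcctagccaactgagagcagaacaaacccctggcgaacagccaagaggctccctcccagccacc
Cav2: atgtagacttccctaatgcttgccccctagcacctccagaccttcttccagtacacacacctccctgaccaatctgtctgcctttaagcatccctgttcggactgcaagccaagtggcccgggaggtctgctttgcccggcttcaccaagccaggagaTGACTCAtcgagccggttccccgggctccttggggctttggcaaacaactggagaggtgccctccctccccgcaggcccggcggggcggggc
Cavin1: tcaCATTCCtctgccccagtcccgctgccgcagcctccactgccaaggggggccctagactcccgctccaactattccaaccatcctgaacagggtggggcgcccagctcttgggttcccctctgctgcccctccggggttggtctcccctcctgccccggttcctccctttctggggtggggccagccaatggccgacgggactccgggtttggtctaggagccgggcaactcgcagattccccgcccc
Cav1 holds a GGAAA at -211 to -207 from its start, Cav2 a TGANTCA match at -92 to -86 and Cavin1 a GGAATG at -247 to -242. The windows share no motif of the 3.

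The CCN genes encode secreted matricellular proteins that bind integrins and heparan sulfate, and both were lowest in vector cells. Ccn1 read 387.7, 299.8 and 297.9 with both plasmids, 554.8, 542.0 and 937.6 with CA-NFATc3, 137.1, 171.8 and 203.9 with Foxd3, and 53.4, 83.1 and 73.1 with vector. No pair of these 4 groups overlapped. Ccn1 was above vector by 1.83 ± 0.20 with both plasmids (adjusted p = 4.58e-05), by 2.77 ± 0.20 with CA-NFATc3 (3.09e-07) and by 0.99 ± 0.20 with Foxd3 (0.011). With both plasmids it lay below CA-NFATc3 alone (log2 -0.94 ± 0.20, adjusted p = 0.00823). That difference was not called without CA-NFATc3 replicate 3 (adjusted p = 0.0529) or with the mean of the Ccn1 probe sets (0.151). The Foxd3 call ended without Foxd3 replicate 3 (adjusted p = 0.0711) and with the mean of probe sets (0.29).

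The upstream window of Ccn1, at chr3:145649986-145650235 (-) on GRCm38.p6, is shown because Ccn1 was called in every contrast except both plasmids against Foxd3, with the same marks.
Ccn1: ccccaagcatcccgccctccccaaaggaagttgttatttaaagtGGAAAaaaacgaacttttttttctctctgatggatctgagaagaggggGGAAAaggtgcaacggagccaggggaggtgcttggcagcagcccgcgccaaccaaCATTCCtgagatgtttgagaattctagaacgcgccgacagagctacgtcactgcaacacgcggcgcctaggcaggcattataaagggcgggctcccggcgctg
It holds a GGAATG on the opposite strand at -103 to -98 and GGAAA at -206 to -202 and -158 to -154.

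Ccn2 had another order, with its highest mean under both plasmids. It read 1388, 980.0 and 1703.6 with both plasmids, 809.7, 571.9 and 1331.3 with CA-NFATc3, 1069, 824.0 and 1655 with Foxd3, and 483.9, 365.3 and 554.5 with vector. Every array with a factor exceeded the 3 vector arrays, the other groups overlapped each other, and replicate 3 was highest and replicate 2 lowest in each group. Ccn2 was above vector by 1.46 ± 0.28 with both plasmids (adjusted p = 0.00546) and by 1.24 ± 0.28 with Foxd3 (0.0219). With CA-NFATc3 alone the difference of 0.84 ± 0.28 did not pass (adjusted p = 0.106), and it did with the replicate number as a block (7.89e-05). Both plasmids against CA-NFATc3 gave 0.62 (adjusted p = 0.262, with the replicate block 0.00115). The Foxd3 call ended without vector replicate 1 (adjusted p = 0.0528) or 2 (0.108) and without Foxd3 replicate 1 (0.0537) or 3 (0.132).

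Amotl2, a junctional scaffold that binds YAP and activates the Lats kinases, lay above vector in each of the other transfected groups. Its signals were 506.6, 415.0 and 732.1 with both plasmids, 618.8, 520.6 and 757.3 with CA-NFATc3, 582.9, 462.6 and 824.5 with Foxd3, and 309.7, 317.6 and 391.4 with vector. All 9 arrays with a factor exceeded the vector arrays, and their 3 groups overlapped. The change was called with CA-NFATc3 (0.83 ± 0.21, adjusted p = 0.0233) and missed the threshold with Foxd3 (0.79, 0.0522) and with both plasmids (0.62, 0.11). With the replicate block, Foxd3 (adjusted p = 0.000322) and both plasmids (0.0013) were called as well. The CA-NFATc3 call ended without vector replicate 1 (adjusted p = 0.089) or 2 (0.0788) and without CA-NFATc3 replicate 1 (0.0555) or 3 (0.153).

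Ankrd1, a nuclear ankyrin-repeat cofactor known from heart muscle, lay between 2.9 and 43.6 on the transfected arrays, all under the filter. Axl, a receptor tyrosine kinase for the ligand Gas6, lay between 20.2 and 47.4. The Ankrd1 signals with CA-NFATc3, 20.5 to 43.6, lay above those of vector, 5.6 to 18.6, and the Axl groups all overlapped. Lats2, the Hippo kinase, read 96.3, 72.5 and 79.6 with both plasmids, 110.9, 66.9 and 97.98 with CA-NFATc3, 81.0, 61.1 and 71.5 with Foxd3, and 108.9, 37.9 and 73.8 with vector, and all 4 groups overlapped. Its difference with CA-NFATc3 was 0.27 (95% interval -0.23 to 0.78, adjusted p = 0.66). Ajuba, a LIM protein that binds and restrains the Lats kinases, lay well above the filter and overlapped between groups throughout. It read 3640, 3158 and 3783 with both plasmids, 3524, 2590 and 3246 with CA-NFATc3, 3572, 3393 and 4989 with Foxd3, and 3562, 2805 and 3660 with vector. The interval of its CA-NFATc3 difference ran from -0.41 to 0.21.

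**Figure D2:**
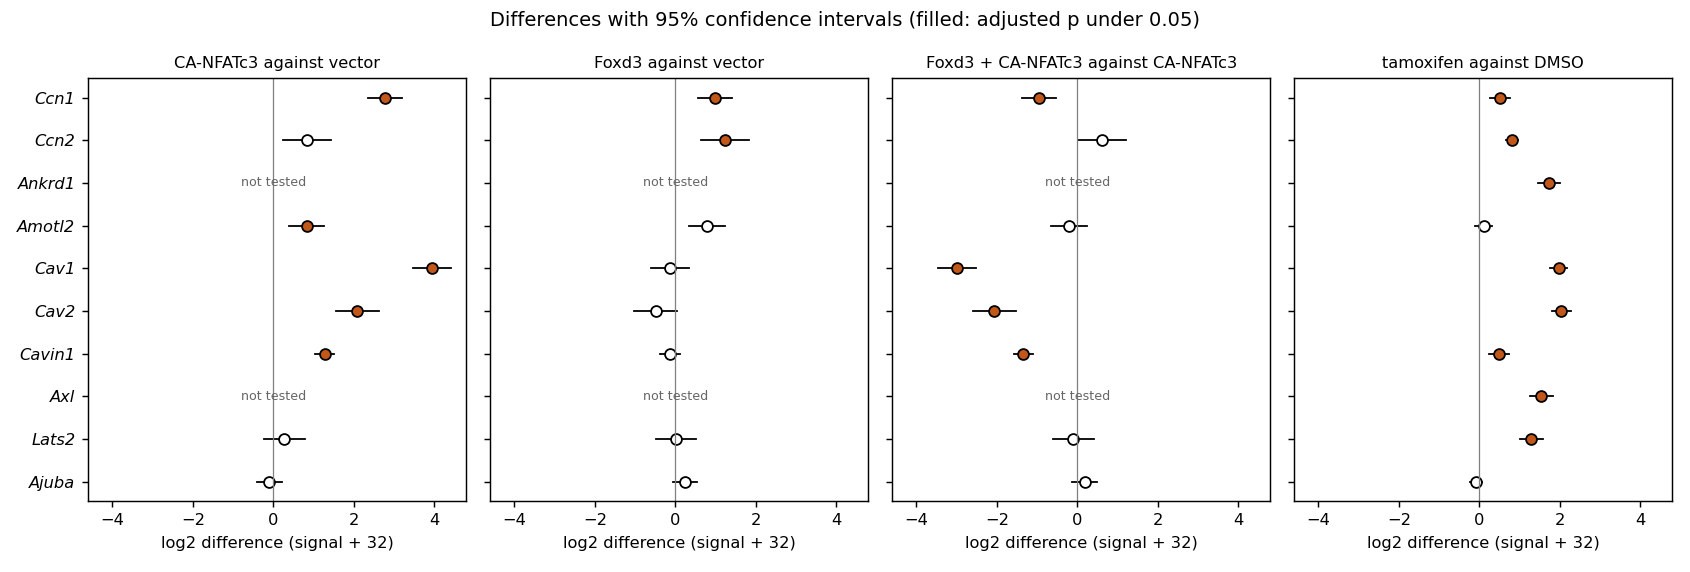
Log2 difference of each gene (horizontal axis, signal + 32) with its 95% interval, in panels for CA-NFATc3 against vector, Foxd3 against vector, both plasmids against CA-NFATc3, and tamoxifen against DMSO; filled points are called at an adjusted p under 0.05. Cav1, Ccn1 and Cavin1 lie right of 0 for CA-NFATc3 against vector and left of 0 for both plasmids against CA-NFATc3.

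Arrays labelled Foxd3 had 2 of the 10 genes called higher than vector, Ccn1 and Ccn2, where 1.71% of all genes were called higher. The caveolar genes were not among them: Cav1 changed by -0.14 (adjusted p = 0.848), Cav2 by -0.49 (0.408) and Cavin1 by -0.13 (0.67). With both plasmids, 3 of the 10 were called above vector, Ccn1, Ccn2 and Cav1, beside 3.48% of all genes. Cav1 was tested only through the 6 arrays with CA-NFATc3, so its place in this count was not free. Its call held in 2 of the 6 fits with 1 replicate left out. Against CA-NFATc3 alone, both plasmids had 4 of the 10 called lower, Cav1, Cav2, Cavin1 and Ccn1, beside 3.69%. Cav2 was tested only through the CA-NFATc3 arrays, so it had to be lower with both plasmids to be counted. Against Foxd3 alone, limma called 0 of the 8 tested genes, with 2 at an unadjusted p under 0.05, and it called 0.327% of all genes. These 2 were Ccn1 (log2 0.83, adjusted p = 0.141) and Cav1 (1.10 ± 0.22, adjusted p = 0.0531), and Cav1 was called with the replicate block (0.0307). The contrasts against vector share its 3 arrays, and the contrasts of both plasmids share theirs. The 3 CA-NFATc3 arrays enter CA-NFATc3 against vector and, with opposite sign, both plasmids against CA-NFATc3 and the interaction. A rise with CA-NFATc3 and a lower level with both plasmids are therefore not independent results.

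The interaction asks whether the effect of the Foxd3 plasmid differs in the presence of CA-NFATc3: it is both minus CA-NFATc3, less Foxd3 minus vector. It was negative and called for 3 of the 10 genes, where 0.724% of all genes were called negative. Cav1 had a fitted term of -2.85 ± 0.32 (adjusted p = 0.000326), Ccn1 had -1.94 ± 0.28 (0.00202) and Cavin1 had -1.22 ± 0.16 (0.00104). For Cav1 the Foxd3 and vector arrays were all under the filter, so a lower level with Foxd3 could not be seen there, its term is no exact size, and it was tested only through the 6 arrays with CA-NFATc3. Cav2 missed the threshold at -1.57 ± 0.36 (adjusted p = 0.0593, with the replicate block 0.0186), and so did Amotl2 at -0.997 (0.18, with the block 0.00207) and Ccn2 at -0.63 (0.749, with the block 0.0384). With the replicate block 6 genes were thus called.

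Some trophectoderm and endoderm markers moved with the caveolar genes. The summed signal of all 6 trophectoderm markers was 1077 to 1232 with both plasmids, 1698 to 2302 with CA-NFATc3, 877 to 1002 with Foxd3 and 744 to 934 with vector. Of the 5 tested, Krt19, Elf5 and Eomes rose with CA-NFATc3, by 2.29, 2.06 and 1.97, and all 3 were lower with both plasmids than with CA-NFATc3 alone (-1.57, -2.40 and -1.42). Across all genes, 4.62% were called higher in the first contrast and 3.69% lower in the second. Elf5 was tested only through its CA-NFATc3 arrays, so it had to differ in both contrasts to be counted. Krt8 and Krt18, the other 2 tested, were called in neither contrast and averaged 360 and 455 with both plasmids, 296 and 337 with CA-NFATc3 and 312 and 280 with vector. Cdx2 was under the filter in every transfected group. The 9 fibroblast markers summed to 1197 to 1335 with both plasmids, 794 to 989 with CA-NFATc3, 721 to 748 with Foxd3 and 585 to 617 with vector. Col1a1, Col1a2, Dcn, Lum and Postn were under the filter with CA-NFATc3, while Col3a1 rose there by 2.32. The 6 endoderm markers summed to 3135 to 3927 with both plasmids, 2995 to 3540 with CA-NFATc3, 2478 to 3358 with Foxd3 and 2282 to 2728 with vector, most of it Sparc. Of the 5 tested, Sox17 (1.47) and Dab2 (1.20) rose with CA-NFATc3, and Sox17 (-0.98) and Sox7 (-0.81) were lower with both plasmids than with CA-NFATc3 alone. Sox17 and Col3a1 averaged under the filter with Foxd3 and with vector, so they were tested through arrays with CA-NFATc3. Gata6 averaged 64.8 with both plasmids, 112 with CA-NFATc3 and 66.8 with vector, and was called in neither contrast. The 5 smooth muscle markers summed to 215 to 323 with both plasmids, 113 to 163 with CA-NFATc3, 136 to 184 with Foxd3 and 81.7 to 106 with vector. The part of these cell types in the members' changes was not tested.

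In Foxd3 conditional knockout cells, tamoxifen raised 8 of the 10 genes over DMSO: Cav2, Cav1, Ankrd1, Axl, Lats2, Ccn2, Ccn1 and Cavin1. Amotl2 and Ajuba did not pass. This contrast moved much of the transcriptome, with 34.4% of 12093 genes called and 17.5% called higher. All 10 genes were tested, and their median change was 1.06, beside -0.01 over all genes. No cells without Cre or floxed alleles were given tamoxifen in this series. Loss of Foxd3, Cre activity and tamoxifen itself therefore cannot be told apart.

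The caveolins rose most. Cav2 read 1046, 1035 and 1113 with tamoxifen and 249.9, 193.6 and 264.6 with DMSO, a change of 2.04 ± 0.11 (adjusted p = 1.29e-07, 4.12-fold on signal + 32). Cav1 read 2800, 3352 and 3160 with tamoxifen and 696.2, 721.8 and 881.9 with DMSO, a change of 1.98 ± 0.10 (adjusted p = 4.59e-08, 3.94-fold). Neither overlapped between the groups. Cavin1 read 1223, 1401 and 1239 with tamoxifen and 754.1, 935.5 and 1070 with DMSO, again without overlap. It rose by 0.48 ± 0.11 (adjusted p = 0.0062), and the mean of its probe sets was not called (0.0667).

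The CCN genes were already bright with DMSO. Ccn2 read 12810, 13183 and 13167 with tamoxifen and 6930, 6915 and 8459 with DMSO (0.82 ± 0.07, adjusted p = 4.93e-06). Ccn1 read 4660, 4381 and 4940 with tamoxifen and 2728, 3050 and 4057 with DMSO (0.52 ± 0.11, adjusted p = 0.00428). The groups did not overlap for either gene, and for both the third DMSO array was the nearest to the tamoxifen arrays.

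Among the other YAP targets, Ankrd1 read 688.8, 852.2 and 814.0 with tamoxifen and 198.3, 189.0 and 255.3 with DMSO, a rise of 1.73 ± 0.13 (adjusted p = 1.18e-06, 3.33-fold). Axl read 630.6, 877.7 and 729.8 with tamoxifen and 228.7, 207.3 and 268.2 with DMSO, a rise of 1.54 ± 0.13 (5.1e-06, 2.91-fold). Lats2 read 838.3, 883.5 and 734.8 with tamoxifen and 265.0, 302.9 and 383.0 with DMSO, a rise of 1.30 ± 0.13 (1.49e-05, 2.46-fold). In all 3 genes every tamoxifen array exceeded every DMSO array. Amotl2 read 2172, 1958 and 2171 with tamoxifen and 1686, 1883 and 2299 with DMSO, which overlapped (0.11, interval -0.10 to 0.33, adjusted p = 0.413). Ajuba read 4192, 3952 and 3586 with tamoxifen and 4384, 3838 and 4165 with DMSO, also overlapping (-0.08, interval -0.23 to 0.07, adjusted p = 0.407).

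Ankrd1 and Ajuba are shown upstream because each holds a pair of GGAATG motifs, while their changes with tamoxifen were unlike. Their windows are chr19:36119845-36120094 (-) and chr14:54577662-54577911 (-) on GRCm38.p6, marked as above.
Ankrd1: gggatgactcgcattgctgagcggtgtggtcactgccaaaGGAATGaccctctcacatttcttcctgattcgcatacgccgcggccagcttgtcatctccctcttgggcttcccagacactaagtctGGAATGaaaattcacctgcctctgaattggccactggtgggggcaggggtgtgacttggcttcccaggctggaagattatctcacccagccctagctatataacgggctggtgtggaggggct
Ajuba: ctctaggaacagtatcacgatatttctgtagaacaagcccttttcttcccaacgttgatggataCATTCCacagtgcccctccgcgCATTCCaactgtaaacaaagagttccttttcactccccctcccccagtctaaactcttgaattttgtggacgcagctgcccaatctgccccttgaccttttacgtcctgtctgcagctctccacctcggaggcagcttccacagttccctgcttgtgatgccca
In Ankrd1 the motifs lie at -210 to -205 and -123 to -118, and in Ajuba, on the opposite strand, at -186 to -181 and -164 to -159.

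Summed signals of fibroblast, smooth muscle and endoderm markers were also higher with tamoxifen. The marker counts stand beside 17.5% of all genes called higher and 34.4% called in either direction. The 9 fibroblast markers summed to 16319 to 18480 with tamoxifen and 3060 to 3635 with DMSO, 8 of 9 were called higher, and Lum was under the filter with DMSO. The 5 smooth muscle markers summed to 11132 to 12282 with tamoxifen and 4893 to 8389 with DMSO, with 2 of 4 tested called higher, Acta2 and Myl9, and Myh11 under the filter with DMSO. The 6 endoderm markers summed to 7548 to 8680 with tamoxifen and 3742 to 5080 with DMSO, with 2 of 5 tested called higher, Dab2 (1.02) and Sparc (0.85), which made up most of the sum, and a median change of 0.18. Trophectoderm markers summed to 7863 to 9340 with tamoxifen and 9898 to 13944 with DMSO, with 2 of 5 tested called lower, Krt19 (-0.90) and Krt18 (-0.33). Of the 6 pluripotency markers 2 were called lower, Pou5f1 (-0.19) and Sox2 (-0.17), and 4 had an unadjusted p under 0.05. Their part in the members' rise was not tested.

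Signals of the members were higher in the knockout line without tamoxifen than in vector cells. DMSO cells had 7435 ± 887 for Ccn2, against 468 ± 95.6 in vector cells, and 767 ± 101 for Cav1, against 29.0 ± 9.14 (SD, n = 3 each). Ankrd1 averaged 214 ± 35.9 in DMSO cells and 10.6 ± 7.02 in vector cells, and Axl 235 ± 30.9 in DMSO cells and 33.5 ± 4.17 in vector cells. For all 10 genes every DMSO array exceeded every vector array, as it did for 36.6% of the genes at the filter. Ankrd1 and Axl were under the filter on every transfected array and reached it only in the knockout line, so their place in this count was not free. No test was made, since line and treatment cannot be told apart between these arrays. In order of level, Cav1 ran tamoxifen, CA-NFATc3, DMSO, both plasmids, vector and Foxd3, with CA-NFATc3 overlapping DMSO and vector overlapping Foxd3. Cav2 had the same order, with CA-NFATc3 overlapping DMSO and both plasmids overlapping vector. For Ccn1 the order was tamoxifen, DMSO, CA-NFATc3, both plasmids, Foxd3 and vector, with no overlap between neighbours.

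Further probe sets of the same genes did not all give the same size of change. Ccn1 has 3 more, which changed by 1.43 (adjusted p = 0.0146), 1.58 (0.0167) and 1.36 (0.0957) with CA-NFATc3 and by 0.64 to 0.81 with tamoxifen, all 3 called there. Their differences between both plasmids and CA-NFATc3, -0.46 to -0.87, did not pass. The further Ankrd1 probe set rose by 1.29 ± 0.16 with tamoxifen (adjusted p = 0.000111). Lats2 has 6 in all: a second called one rose by 1.11 ± 0.22 with tamoxifen (0.00297), while changes of 0.31 (0.247) and 0.11 (0.752) did not pass. The further Axl probe set stayed between 14.1 and 38.0 on all 18 arrays. The further Cav2 probe set was dim and did not follow the rises. It averaged 52.6 with CA-NFATc3, 47.1 with vector, 57.5 with tamoxifen and 61.9 with DMSO. Further Cavin1 probe sets were under the filter on all 18 arrays, so the mean of probe sets of Cavin1 takes in such signals. With tamoxifen 13 of the 17 tested probe sets were called higher, beside 14.4% of all probe sets, and with CA-NFATc3 7 of 13, beside 2.84%.

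Genes related to the members by family or pathway were counted next. The counts with CA-NFATc3 stand beside 4.62% of all genes called higher. Yap1 and Wwtr1, which encodes TAZ, were called in no contrast and are named after their values were seen: with CA-NFATc3 they changed by 0.11 (adjusted p = 0.444) and 0.43 (0.0807), and with tamoxifen by 0.02 (0.843) and -0.14 (0.185). Of 8 tested YAP, TAZ and TEAD factors, the TEAD cofactor Vgll3 rose with CA-NFATc3 (1.46 ± 0.19, adjusted p = 0.000147). Vgll3 was lower with both plasmids than with CA-NFATc3 (log2 -1.38), where Tead1 was also lower (-0.48) and Tead2 higher (0.56). Among 14 tested Hippo genes, 4 rose with CA-NFATc3: the phosphatase Ptpn14 (0.88), the angiomotins Amotl1 (0.80) and Amot (0.65), and Frmd6 (0.62). Of 13 tested further YAP target genes, 4 rose, namely Nt5e (1.22), Ptpn14, Tgfb2 (0.81) and Dock5 (0.61). Tgfb2 averaged under the filter with vector (40.3) and with Foxd3 (54.0), so it was tested through arrays with CA-NFATc3. Among the CCN receptors, syndecan-4 (Sdc4) rose by 1.04 and integrin β1 (Itgb1) by 0.48. Of 3 tested caveolar partners, 4 tested receptor or ligand genes of the Axl family and 6 tested LIM genes, 0 were called.

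The caveolar partners Ehd4 (-0.48) and Ehd1 (-0.34) were lower with both plasmids than with CA-NFATc3. So were Nt5e (-1.47), Sdc4 (-0.95), Frmd6 (-0.78), Amotl1 (-0.49), Dock5 (-0.43) and Pros1 (-0.69), a ligand gene of the receptor family of Axl. Taok3 (0.69) and Itga6 (0.26) were higher in that contrast. Against vector, the differences of Ehd1 (0.26, adjusted p = 0.0665) and Ehd4 (0.27, 0.213) with CA-NFATc3 alone did not pass. With Foxd3 alone, Igfbp3, a further YAP target, rose by 1.68, the kinase gene Taok3 by 0.78 and the integrin gene Itga6 by 0.25, while Myof fell by 0.77, Frmd6 by 0.44 and Tead1 by 0.40. Against vector, both plasmids raised 3 of 13 tested YAP targets, Tgfb2 (1.28), Igfbp3 (0.99) and Ptpn14 (0.61), while Myof was lower (-0.74). Of all genes, 3.48% were called higher in that contrast. Both plasmids also raised Taok3 (0.73), Amot (0.53), the LIM gene Lpp (0.85) and the integrin genes Itgav (0.63) and Itga6 (0.33). Tgfb2 was also higher than with Foxd3 alone (1.06). It averaged under the filter with Foxd3 and with vector, so its place in these counts was not free.

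The counts with tamoxifen stand beside 17.5% of all genes called higher. All 3 tested CCN relatives rose, Ccn4 by 2.51, Ccn5 by 1.27 and Ccn3 by 0.65. Ccn5 and Ccn3 averaged under the filter with DMSO (46.8 and 55.3) and were tested through tamoxifen arrays. Their place in this count was therefore not free. Ccn6 averaged 14.4 with DMSO and 12.5 with tamoxifen and was not tested. Of 6 tested caveolar partners, 4 rose, led by Cavin2 (2.37, with 734 against 117 for DMSO) and Ehd2 (1.00), with Pacsin3 (0.36) and Ehd1 (0.35). Of 14 tested Hippo genes 9 were higher, among them Frmd6 (0.54), Lats1 (0.50) and Mob1b (0.49), and Wwc1 was lower (-0.37). Of 15 tested further YAP targets 10 were higher, including Ccdc80 (1.70), the tissue factor gene F3 (1.501) and Rbms3 (0.99), and Nuak2 was lower (-0.79). Vgll3 rose by 1.54, Tead1 by 0.52 and Vgll4 by 0.45, while Tead2 fell by 0.46. Gas6 and Pros1, ligand genes of the receptor family of Axl, rose by 0.84 and 0.37. Of 8 tested CCN receptors 5 were higher, led by Itgb1 (0.76), Lrp1 (0.68), Sdc4 (0.55) and Itgav (0.53), and Itga6, named after its values were seen, was lower (-0.29). The LIM genes Zyx (0.47) and Wtip (-0.30) went opposite ways.

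**Figure D3:**
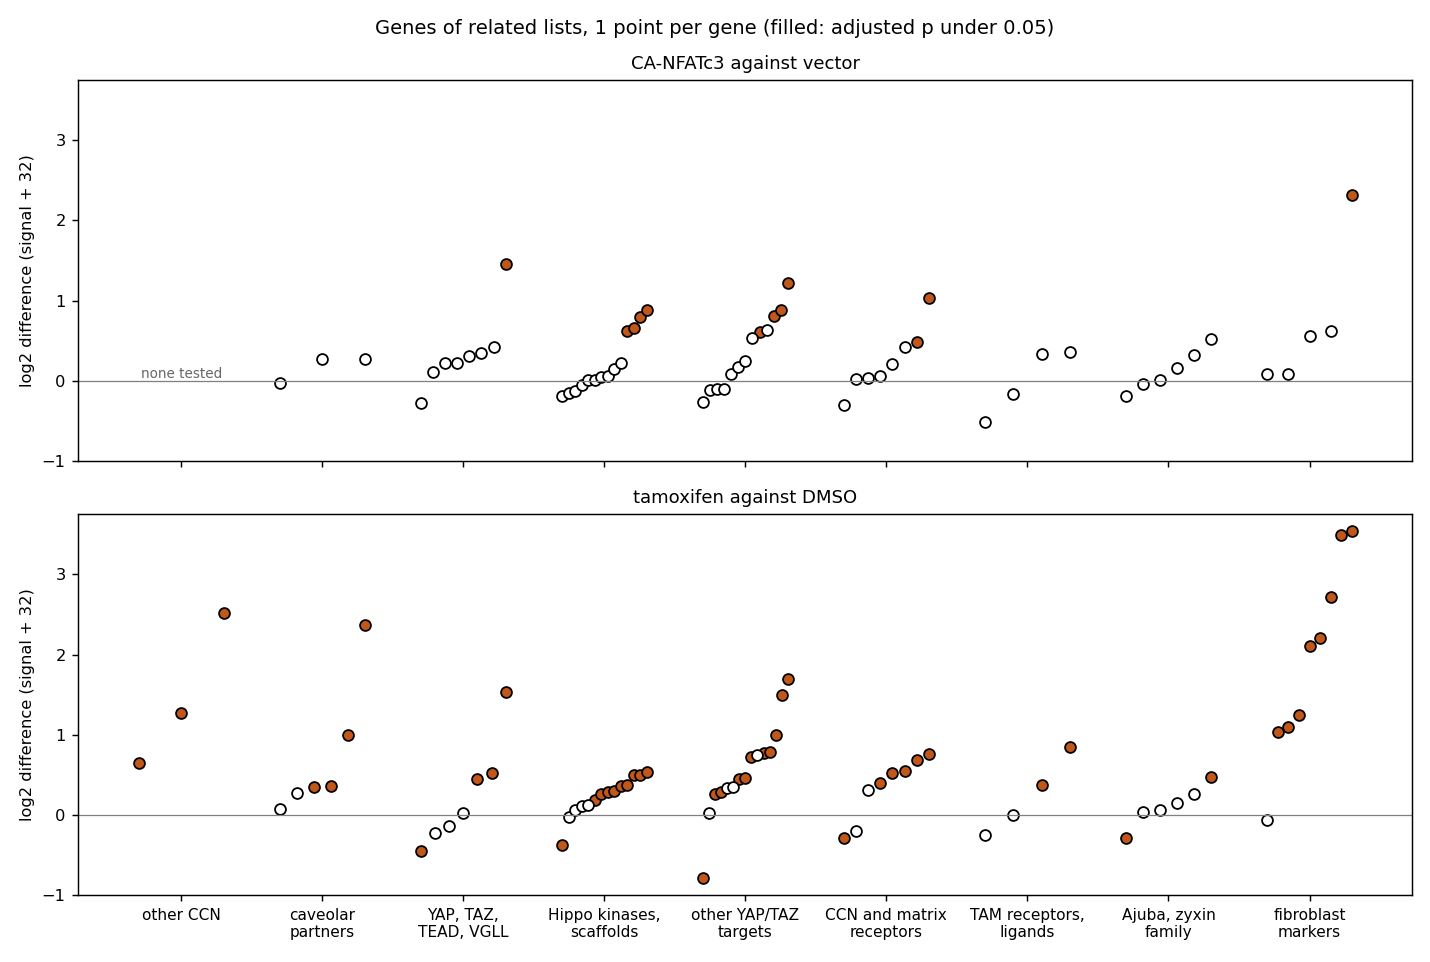
Log2 difference (vertical axis, signal + 32) of every tested gene of each related list and of the fibroblast markers, 1 point per gene, for CA-NFATc3 against vector (upper panel) and tamoxifen against DMSO (lower panel), with filled points for called genes. The lower panel holds Ccn4 at 2.51 among the other CCN genes and Cavin2 at 2.37 among the caveolar partners.

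The genes most like Cav1 over the 12 transfected arrays, by Pearson's r on the log2 scale among 11608 genes, were Rcan1 (0.993), Dmkn (0.990), S100g (0.989), F2r (0.987) and Rasgrp3 (0.986). Rcan1, a calcineurin inhibitor, averaged 1441 with both plasmids, 3702 with CA-NFATc3, 1047 with Foxd3 and 1196 with vector. S100g, a vitamin D-dependent calcium-binding protein, averaged 52.7 with both plasmids, 4063 with CA-NFATc3, 5.64 with Foxd3 and 1.55 with vector. Most like Ccn1 were Pdzrn3 (0.970), Afap1 (0.965), Ptpn14 (0.964), Lgals1 (0.957) and Car2 (0.956). Pdzrn3 averaged 358 with both plasmids, 841 with CA-NFATc3, 152 with Foxd3 and 98.8 with vector. These values describe arrays of 4 shared groups and carry no test.

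Upstream windows were searched for all members with an entry in the promoter set used here, which were 9 genes. That set had no entry for Ccn2. GGAATG lay in the windows of 6 of the 9 genes, Ccn1, Ankrd1, Amotl2, Cavin1, Axl and Ajuba. That is 7 of the 12 windows of the 9 genes, beside 12.6% of 32851 promoters of the same length. Both Cavin1 windows overlap almost fully, and the same site counts in each of them. GGAAA lay in 4 of the 9, Ccn1, Cav1, Axl and Lats2, or 5 of 12 windows, beside 55.6% of promoters. TGANTCA lay in 1 window, that of Cav2, beside 6.75%. The second Cav1 window held none of the 3. The matches of the 3 motifs did not overlap each other.

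**Figure D4:**
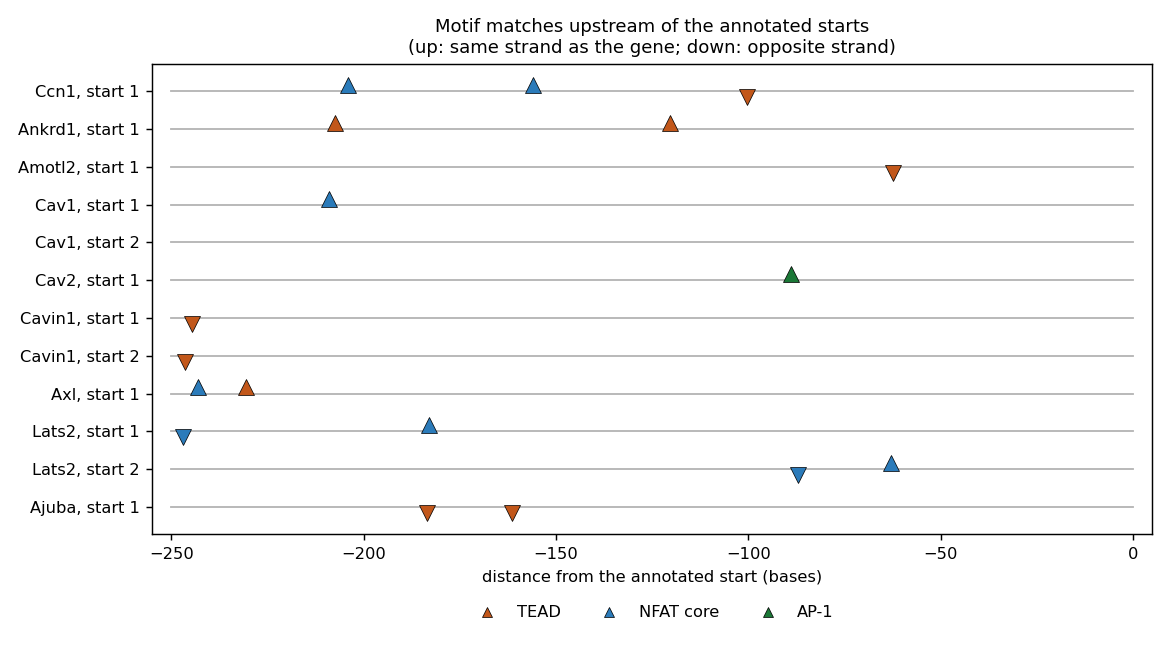
Matches of the TEAD motif, the NFAT core and the AP-1 motif in the 250 bases upstream of each annotated start (horizontal axis, bases from the start), with a line for each start site and triangles pointing up for the gene's strand and down for the opposite one. Ankrd1 and Ajuba each hold a pair of TEAD motif matches, and Cav2 holds the AP-1 match at -92 to -86.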

How the data were processed

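The authors deposited one intensity per probe set and array, a MAS5 signal per the submitters' processing notes, which give no version; trimmed means of 500 show scaling to a common target. Background subtraction and detection calls are not described in the sources used here. Of 45101 probe sets, 34945 carry 1 symbol in the platform annotation, and a gene was represented by its probe set of highest mean log2 signal. Intensities were used as deposited, log2(signal + 32) was fitted with limma 3.58.1 (R 4.3.3, trended eBayes), separately for the 12 transfected and 6 knockout arrays, and two-sided p-values were adjusted over all genes tested (Benjamini-Hochberg). A simulation of CA-NFATc3 against vector on 11609 genes placed changes only in bright genes, with noise drawn independently for each array. It recovered 65.7% of changes of 0.5, and 100% of changes of 1 and of 2. These rates do not hold for dimmer genes, such as Cav1 and Cav2 in the transfected cells. Figures used Python 3.11.15 and matplotlib 3.10.9.

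Related genes named are up to 4 called genes with the largest change per list and contrast; the 5 genes most like Cav1 and Ccn1 follow a rank of correlation. Some genes of the related lists are not analysed here. The members and lists were chosen with earlier results of these data known. Replicate numbers pair the transfected samples by the data: residuals of all 18 same-number pairs correlated at 0.104 to 0.315, and of the 36 other pairs at -0.282 to 0.0133; in the knockout line the 3 pairs gave -0.0425 to 0.0152. Alternatives were an offset of 1, quantile normalization, no filter, the mean of probe sets, each probe set tested, array weights, all 18 arrays in 1 fit, the replicate block and leaving out each replicate.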

Additional observations from a re-analysis of the deposited data

Results flagged for a closer look

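The interaction term of limma, which asks whether the effect of the Foxd3 plasmid differs with and without CA-NFATc3, was called for 3 of the 10 genes. It was -2.85 for Cav1, -1.94 for Ccn1 and -1.22 for Cavin1 on the log2 scale. For Cav1 all Foxd3 and vector arrays lay under the filter, so a lower level with Foxd3 could not be seen without CA-NFATc3, and its term is no exact size. Cav1 and Cavin1 were lower with both plasmids than with CA-NFATc3 alone on all 3 arrays, without overlap, and so was Ccn1. In the absence of CA-NFATc3, Ccn1 was higher with Foxd3 than with vector, while Cav1 and Cavin1 were not called. With the mean of probe sets the Ccn1 term was -1.39 (adjusted p = 0.135) and the Cavin1 term -0.59 (adjusted p = 0.326).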

How the results depend on the processing

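With 1 replicate left out, called members numbered 0 to 3 for Foxd3 against vector, 3 to 5 for CA-NFATc3 against vector and 2 to 4 for both against CA-NFATc3, where all arrays gave 2, 5 and 4. With the mean of probe sets, 1 member was called for Foxd3 against vector, 1 for both against Foxd3 and 1 for the interaction. For both against Foxd3, where limma called 0 with 2 at an unadjusted p under 0.05, 1 was called with an offset of 1, 1 with array weights, 1 with the replicate block and 2 with all 18 arrays in 1 fit. The replicate block called 6 members for the interaction, where 3 were called without it, and beyond the calls named in the report it changed no other call of a member. Signs that turned belonged to differences that were not called. Cavin1 was 0.013 for Foxd3 against vector and -0.044 for both against Foxd3 with the mean of probe sets, and Cav2 was -0.026 for both against vector after quantile normalization. With 1 replicate left out, Lats2 ranged between -0.25 and 0.26 for Foxd3 against vector, -0.094 and 0.41 with both plasmids against vector, -0.25 and 0.013 with both against CA-NFATc3, and -0.36 and 0.15 for the interaction. Ajuba ranged between -0.22 and 0.027 for CA-NFATc3 against vector, -0.038 and 0.16 with both plasmids against vector, -0.26 and 0.015 with both against Foxd3, and -0.18 and 0.11 for the interaction. With both plasmids against vector, Cav2 ranged between -0.038 and 0.16. Against Foxd3, both plasmids gave -0.0070 to 0.48 for Ccn2 and -0.38 to 0.044 for Amotl2. The cause of these turns was not tested. Over all genes the replicate block raised the calls to 783 for Foxd3, 1104 for CA-NFATc3 and 1122 for both plasmids against vector, 1258 for both against CA-NFATc3, 96 for both against Foxd3 and 245 for the interaction, where 334, 680, 559, 711, 38 and 94 genes were called without it. Leaving out 1 replicate gave 158 to 282, 349 to 620, 322 to 461, 385 to 585, 22 to 28 and 48 to 104 genes in these 6 contrasts. Array weights gave 552 genes for Foxd3 against vector and 172 for the interaction, all 18 arrays in 1 fit gave 63 for both against Foxd3 and 161 for the interaction, and the mean of probe sets gave 343 for both plasmids against vector. Signals under the filter, as for Ankrd1 and Axl in transfected cells, limit what a lack of change there can show.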
